A study of Mus musculus with 15 samples.

Results

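miR-132 and miR-212 are 2 microRNAs (miRNAs) cut from neighbouring hairpins of 1 transcript, and each hairpin gives a 5p and a 3p mature strand. The members described here are those 4 strands, mmu-miR-132-5p, mmu-miR-132-3p, mmu-miR-212-5p and mmu-miR-212-3p. They were chosen by name, with earlier results of these data known, and are 4 of the 1424 mature mouse miRNAs in the deposited table. All 4 were measured in each of 15 whole-lung small RNA libraries, and all 4 were among the 818 miRNAs that passed the filter on low values and were tested.

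The transcript of this cluster is a textbook target of CREB, a transcription factor that is switched on by phosphorylation downstream of growth factors, cyclic AMP and, in neurons, synaptic activity. Both miRNAs are best known from the brain, where they act on neurite and spine growth, and miR-132 is also induced in leukocytes by bacterial lipopolysaccharide and in endothelium by angiogenic growth factors. A miRNA guides Argonaute proteins to messenger RNAs that pair with its seed, the bases near its 5′ end. Known targets of miR-132 include Rasa1, which restrains Ras in endothelium, Arhgap32, which restrains Rac in dendrites, and Ep300, a coactivator that CREB recruits. Messenger RNAs were not analysed here.

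The mice were C57BL/6 animals of both sexes, 11 weeks old per the labels and dosed between 8 and 12 weeks of age per their protocol, either wild type (WT) or carrying R213G, a variant of extracellular superoxide dismutase (EC-SOD), on both alleles. EC-SOD is the secreted antioxidant enzyme that holds to the matrix of lung and vessels, and the R213G variant lowers that binding. Each mouse received 1 intratracheal dose of bleomycin, a DNA-cleaving drug used to injure the lung (100 uL at 1 U/mL in PBS), or the same vehicle, phosphate-buffered saline (PBS), alone. After 7 days the lungs were flushed with 10 mL PBS through the right ventricle and frozen. The groups were R213G bleomycin (n = 4 libraries), WT bleomycin (n = 4), R213G PBS (n = 4) and WT PBS (n = 3). The variant is carried in the germ line, so it is present in every cell of the R213G lungs. The labels do not say that each library is a separate mouse, so the p-values measure only the spread between libraries.

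The mature sequences are shown because the strands differ in what they can pair with. They are RefSeq's, on GRCm38.p6, written 5′ to 3′ with the seed (bases 2 to 8) in capitals. All lie on the plus strand of chromosome 11.
miR-212-5p (chr11:75173403-75173425): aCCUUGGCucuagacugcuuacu
miR-212-3p (chr11:75173443-75173464): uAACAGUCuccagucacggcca
miR-132-5p (chr11:75173686-75173707): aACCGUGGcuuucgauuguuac
miR-132-3p (chr11:75173723-75173744): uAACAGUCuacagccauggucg

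miR-132-3p and miR-212-3p share the seed AACAGUC, the first 9 bases, and 17 of 22 positions. The 5p strands have different seeds, ACCGUGG in miR-132-5p and CCUUGGC in miR-212-5p, and share 9 of 22 positions when aligned from the 5′ end. Shifted by 1 base against each other, the 5p strands share 14 of 21 positions. In the RefSeq table no other mature mouse miRNA carries any of these 3 seeds. The cluster therefore holds 3 seeds on 4 strands, and the seed AACAGUC was measured through miR-132-3p and miR-212-3p together. The sources used here do not say how reads that match more than 1 mature miRNA were assigned.

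The hairpins are shown to place each strand, with the mature arms in capitals. Mir212 covers 91 bases (chr11:75173388-75173478) and Mir132 covers 66 bases (chr11:75173682-75173747).
Mir212: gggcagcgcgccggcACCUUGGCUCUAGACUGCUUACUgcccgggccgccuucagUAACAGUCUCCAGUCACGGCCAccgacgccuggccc
Mir132: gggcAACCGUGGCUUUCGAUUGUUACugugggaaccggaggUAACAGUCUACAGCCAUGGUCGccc

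Mir212 comes first along the transcript and 203 bp separate it from Mir132, so both hairpins fit within 360 bp. In GENCODE M21 both lie inside the noncoding gene 1700016P03Rik, in the intron between exon 1, which ends at position 75172597, and exon 2, which starts at 75173978. The nearest protein-coding genes are Ovca2, 2195 bp from Mir132, and the transcriptional repressor gene Hic1, 3869 bp from Mir212, both on the minus strand. The sources used here do not name the build that the reads were aligned to, and these positions come from the annotation alone.

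All 4 strands were higher 7 days after bleomycin than after PBS, in R213G lungs and in WT lungs alike. Levels are given as the deposited values, log2 of 1 plus an equalized count, a count scaled by the authors to a common library size. That reading of the unit was inferred from the values. A difference of 1 on this scale is a doubling. The strands are 22 or 23 bases long, so their levels were compared without scaling to length.

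miR-132-3p, the guide strand of miR-132 and the most abundant of the cluster, stood at 12.26, 12.02, 11.95 and 11.89 in R213G bleomycin lungs, against 10.41, 10.33, 10.62 and 10.37 in R213G PBS lungs. In WT lungs it stood at 11.92, 11.72, 11.84 and 11.92 after bleomycin and at 9.73, 10.35 and 10.27 after PBS. Every bleomycin library lay above every PBS library, and WT PBS replicate 1 was the lowest of all 15. The mean equalized count was 4199 ± 502 in R213G bleomycin lungs and 1384 ± 125 in R213G PBS lungs (SD, n = 4 each). In WT lungs it was 3695 ± 240 after bleomycin (SD, n = 4) and 1128 ± 246 after PBS (SD, n = 3). The log2 difference was 1.60 ± 0.13 in R213G lungs (limma, SE, adjusted p = 1.55e-07) and 1.73 ± 0.14 in WT lungs (limma, SE, adjusted p = 1.61e-07), or 3.03-fold and 3.33-fold higher. Leaving out WT PBS replicate 1 lowered the WT difference to 1.54.

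miR-212-3p, which carries the same seed, stood at 9.40, 9.43, 9.41 and 9.46 in R213G bleomycin lungs, against 7.42, 7.47, 7.65 and 7.70 in R213G PBS lungs. In WT lungs the values were 9.54, 9.26, 9.04 and 9.51 after bleomycin and 7.31, 7.53 and 7.48 after PBS. The groups did not overlap in either genotype. The R213G bleomycin libraries lay closest together of the 4 groups, within 1.05-fold of each other as counts, against 1.42-fold in the WT bleomycin libraries. The log2 difference was 1.86 ± 0.12 in R213G lungs (limma, SE, adjusted p = 2.22e-08) and 1.90 ± 0.13 in WT lungs (limma, SE, adjusted p = 5.13e-08), which is 3.64-fold and 3.72-fold.

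miR-212-5p, the other arm of the miR-212 hairpin, stood at 8.67, 8.34, 8.45 and 8.29 in R213G bleomycin lungs, against 6.44, 6.56, 6.68 and 6.58 in R213G PBS lungs. In WT lungs it stood at 8.44, 8.14, 8.20 and 8.66 after bleomycin and at 6.36, 6.43 and 6.40 after PBS. Again no bleomycin library reached down to a PBS library, and the PBS libraries of both genotypes fell within a narrow band. miR-212-5p had the highest log2 difference of the cluster in both genotypes, above miR-212-3p by less than its SE, at 1.87 ± 0.13 in R213G lungs (limma, SE, adjusted p = 3.28e-08) and 1.96 ± 0.14 in WT lungs (limma, SE, adjusted p = 5.13e-08). These are 3.66-fold and 3.90-fold.

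miR-132-5p, the passenger arm of miR-132 and the least abundant strand after bleomycin, stood at 8.03, 8.10, 7.96 and 8.05 in R213G bleomycin lungs, against 6.33, 6.81, 6.35 and 6.56 in R213G PBS lungs. In WT lungs it stood at 8.18, 7.97, 7.90 and 8.43 after bleomycin and at 6.20, 6.47 and 6.53 after PBS. The bleomycin and PBS libraries were again separate in both genotypes, with R213G PBS replicate 2 the highest PBS library. The log2 difference was 1.53 ± 0.15 in R213G lungs (limma, SE, adjusted p = 9.8e-07) and 1.72 ± 0.16 in WT lungs (limma, SE, adjusted p = 8.51e-07), or 2.88-fold and 3.29-fold.

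**Figure D1:**
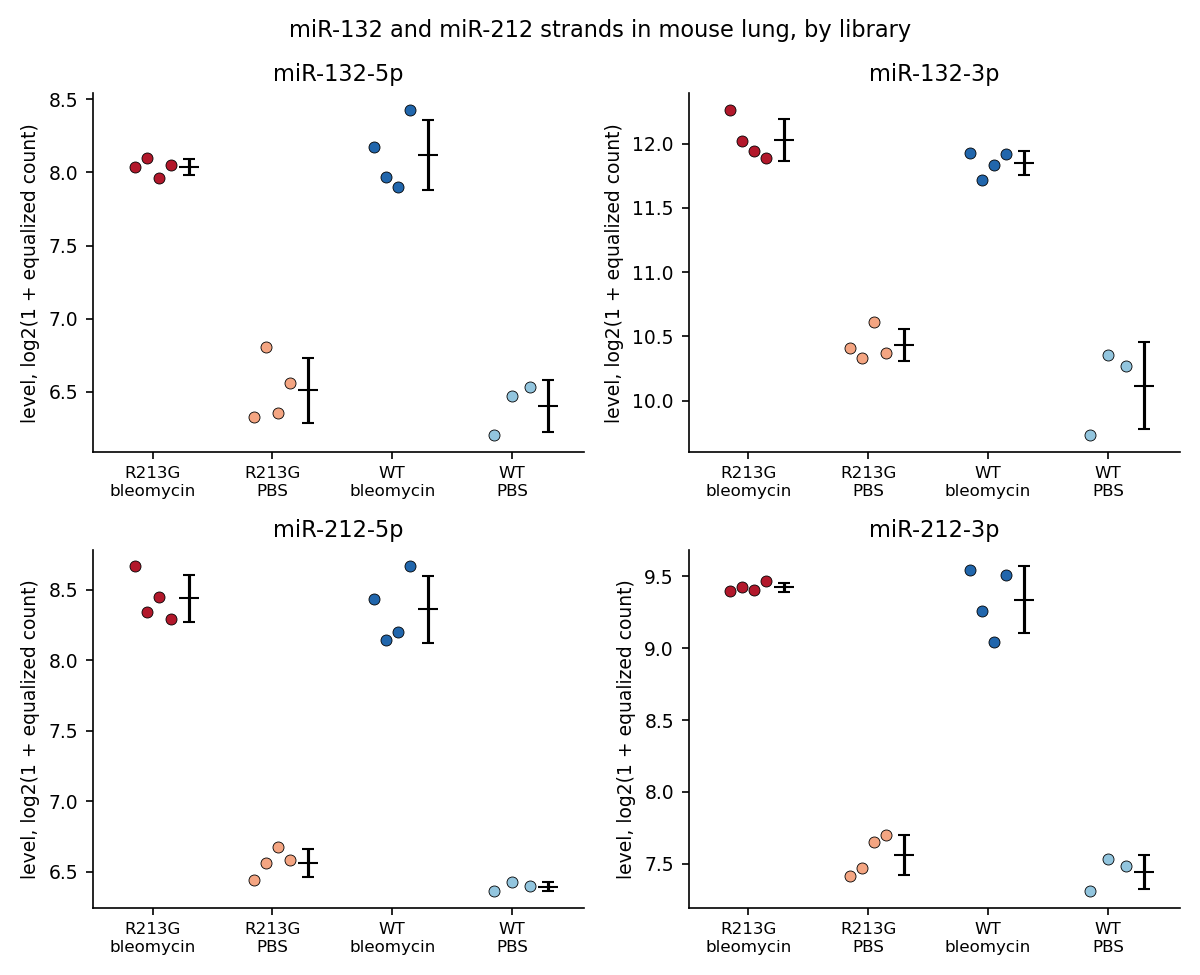
Levels of the 4 strands in each library, as log2(1 + equalized count), 1 point per library, with the mean and SD of each group beside the points. In every panel the bleomycin libraries lie above the PBS libraries of both genotypes, while R213G and WT libraries of the same treatment occupy about the same range.

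So 4 of 4 strands rose at an adjusted p under 0.05 in each genotype, beside 22.2% of the 818 tested miRNAs called higher in R213G lungs and 16.4% called higher in WT lungs. The 4 strands come from 1 transcript and the same libraries, so they are not 4 independent results. They were also chosen with earlier results of these data known. Every bleomycin library lay above every PBS library for 4 of 4 strands in each genotype, which also held for 21.9% of tested miRNAs in R213G lungs and 18.7% in WT lungs. All 4 were called and at least 2-fold higher, as were 9.05% of tested miRNAs in R213G lungs and 8.56% in WT lungs. Ordered by p among the 818, miR-212-3p was 2nd, miR-212-5p 4th and miR-132-3p 6th in both genotypes, with miR-132-5p 10th in R213G lungs and 7th in WT lungs. Ordered by the size of the rise they came lower, between 28th and 44th in R213G lungs and between 19th and 33rd in WT lungs. The median half-width of a 95% confidence interval over all tested miRNAs was 0.48 in R213G lungs and 0.51 in WT lungs, wider than those of the 4 strands. In R213G lungs theirs ran from 1.60 to 2.13 for miR-212-3p and from 1.22 to 1.84 for miR-132-5p.

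**Figure D2:**
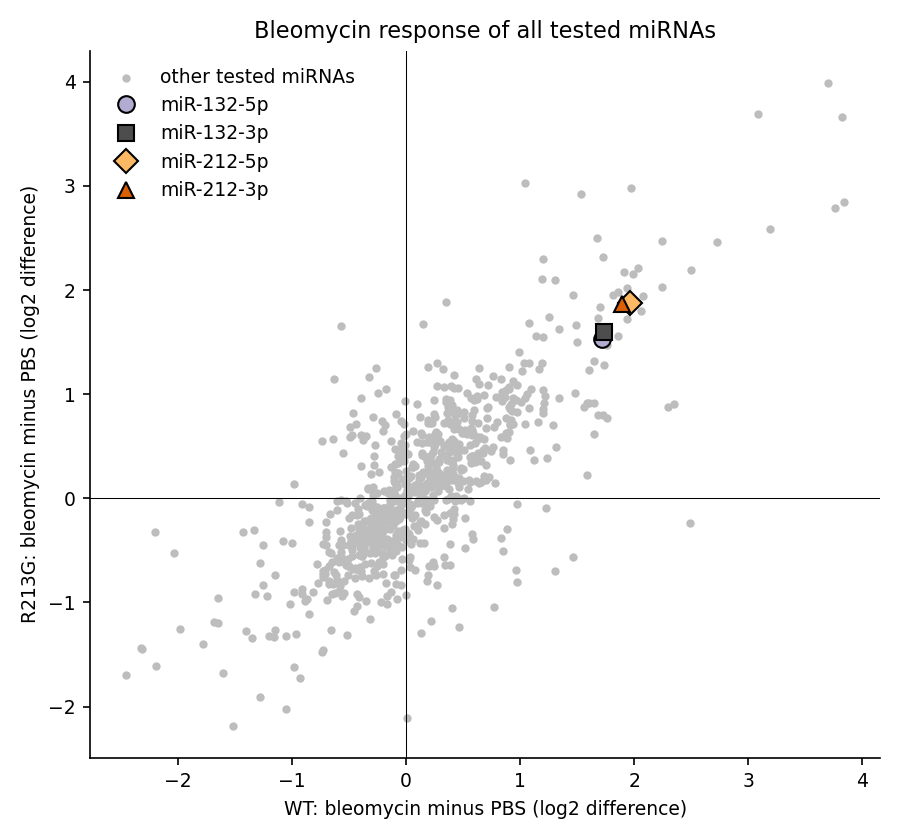
Bleomycin minus PBS log2 difference of each of the 818 tested miRNAs in WT lungs (horizontal axis) and R213G lungs (vertical axis), with the 4 strands marked. The 4 strands lie together in the upper right, between 1.53 and 1.87 in R213G lungs and between 1.72 and 1.96 in WT lungs.

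The median log2 difference of all tested miRNAs was 0.05 in R213G lungs and 0.05 in WT lungs. Setting every library to the same median moved those medians down by 0.13 and 0.12, and the splits moved with them. In R213G lungs 182 miRNAs were called higher and 162 lower as deposited, against 148 and 199 with equal medians. In WT lungs the counts were 134 higher and 84 lower as deposited, against 110 and 121. The 4 strands remained called and higher, at 1.39 to 1.74 in R213G lungs and 1.60 to 1.85 in WT lungs. The authors' deposited table gives q-values of its parametric test for the R213G comparison of 0.0127 for miR-132-5p, 0.00246 for miR-132-3p, 0.00246 for miR-212-5p and 0.00673 for miR-212-3p. For the WT comparison the authors' deposited table gives 0.028, 0.142, 0.0475 and 0.028 in the same order of strands. There miR-132-3p did not pass. By the parametric test 160 of 1408 miRNAs had a q under 0.05 in the R213G comparison and 11 of 1384 in the WT comparison. The rank test in the authors' deposited table gives each strand a q of 0.109 in the R213G comparison and 0.223 in the WT comparison. Each is the smallest q that test holds there, and it calls 0 miRNAs. In WT lungs the groups of every strand were fully apart and its p was still 0.0571 (Wilcoxon test), so no strand could pass. The SD of miR-132-3p was the widest of the 4 strands in the WT PBS group, at 0.34 on the log2 scale.

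Library sums of the equalized counts ran from 18087289.8 to 24759615.3, and these are not read depths, which are unknown. Scaled so that every library had the same sum, in CPM, the cluster came to 286 ± 32.9 CPM in R213G bleomycin lungs and 246 ± 20.3 CPM in WT bleomycin lungs, against 78.8 ± 7.51 CPM in R213G PBS lungs (SD, n = 4 each) and 64.8 ± 13.0 CPM in WT PBS lungs (SD, n = 3). The cluster was thus a small part of lung miRNA in every group. miR-132-3p ranked between 117th and 144th of the miRNAs in a bleomycin library and between 173rd and 205th in a PBS library. The next strand, miR-212-3p, ranked between 218th and 249th after bleomycin and between 303rd and 322nd after PBS.

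**Figure D3:**
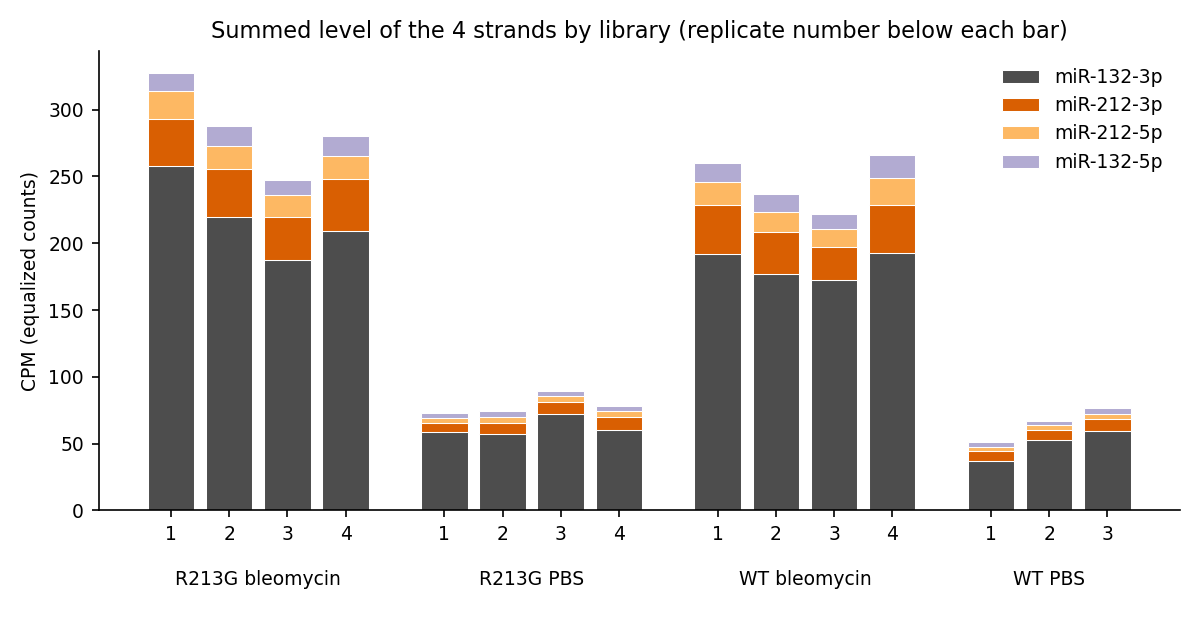
Summed level of the 4 strands in each library, in CPM of the equalized counts, stacked by strand, with the replicate number below each bar. The bars stand at 222 to 328 CPM in bleomycin libraries and at 50.8 to 89.5 CPM in PBS libraries, with miR-132-3p as the main layer in all 15.

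miR-132-3p alone made up 76.3% ± 1.68 of the cluster in R213G bleomycin lungs and 74.6% ± 2.19 in WT bleomycin lungs, against 78.7% ± 1.86 in R213G PBS lungs (SD, n = 4 each) and 76.5% ± 2.91 in WT PBS lungs (SD, n = 3). Within miR-132 the 3p strand held 94.1%, 93.0%, 93.8% and 93.0% of the counts in R213G bleomycin, WT bleomycin, R213G PBS and WT PBS lungs. Within miR-212 the arms were more even, and the 3p strand held 66.4%, 66.3%, 66.7% and 67.5% in the same groups. Small RNA ligation favours some ends over others, so a ratio between different strands is not a ratio of molecules, while the same ratio can be compared between libraries.

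Whether the arms and the hairpins moved together was read from log2 ratios within a library, which do not depend on how that library was scaled. The 3p over 5p ratio of miR-132 was 3.99 in R213G bleomycin lungs and 3.92 in R213G PBS lungs, and 3.73 in WT bleomycin lungs and 3.72 in WT PBS lungs. Averaged over genotypes, the difference of this ratio was 0.04 (exact permutation test, two-sided, adjusted p = 0.891 over 12 ratio tests). The 3p over 5p ratio of miR-212 was 0.98 in R213G bleomycin lungs and 0.99 in R213G PBS lungs, and 0.98 in WT bleomycin lungs and 1.05 in WT PBS lungs, an averaged difference of -0.04 (exact permutation test, adjusted p = 0.891). No change in the share of the arms passed the test for either hairpin.

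The 2 hairpins were set against each other strand by strand. The log2 ratio of miR-212-5p over miR-132-5p was 0.63, 0.24, 0.49 and 0.24 in R213G bleomycin libraries, against 0.11, -0.24, 0.33 and 0.02 in R213G PBS libraries. In WT lungs it was 0.26, 0.18, 0.30 and 0.23 after bleomycin and 0.16, -0.04 and -0.13 after PBS. The WT groups did not overlap, and in R213G lungs PBS replicate 3 lay above bleomycin replicates 2 and 4. That PBS library and those bleomycin libraries belong to different runs of tag numbers, described below. The difference was 0.35 in R213G lungs (exact permutation test, p = 0.0857, adjusted p = 0.206) and 0.25 in WT lungs (exact permutation test, p = 0.0286, the smallest that 4 against 3 libraries can give, adjusted p = 0.171). Averaged over genotypes it was 0.30 (exact stratified permutation test, p = 0.00327, adjusted p = 0.0392), the 1 of the 12 ratio tests that passed. That call was lost when any 1 of 13 libraries was left out, all but R213G PBS replicate 3 and WT PBS replicate 1, with differences of 0.25 to 0.34 over the 15 left-out fits and adjusted p-values between 0.0098 and 0.127 over all its alternatives.

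For the 3p strands, the ratio of miR-212-3p over miR-132-3p was -2.61 in R213G bleomycin lungs and -2.87 in R213G PBS lungs. In WT lungs it was -2.51 after bleomycin and -2.67 after PBS. The averaged difference of 0.21 did not pass after adjustment (exact permutation test, p = 0.0453, adjusted p = 0.181). Both ratios of miR-212 over miR-132 were thus higher after bleomycin in each genotype by value, and the 5p ratio passed the test only in the averaged comparison.

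**Figure D4:**
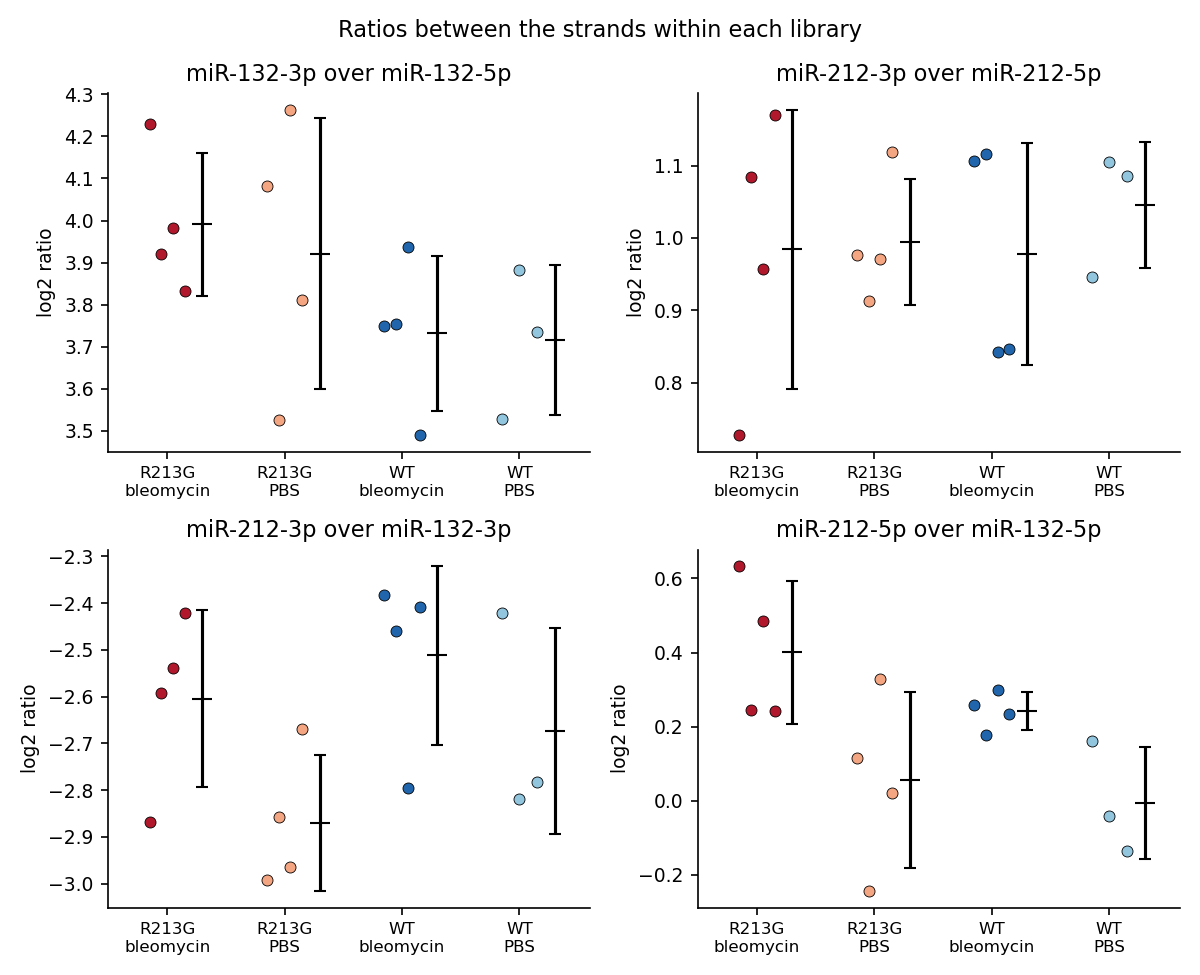
Log2 ratios between the strands within each library, 1 point per library, with group mean and SD beside the points. The arm ratios of each hairpin (upper panels) overlap between bleomycin and PBS libraries, and the ratio of miR-212-5p over miR-132-5p (lower right) averages 0.40 and 0.24 in R213G and WT bleomycin libraries and 0.05 and -0.01 in R213G and WT PBS libraries.

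The genotype comparison asks whether the EC-SOD variant goes with a different level of the cluster, at rest or after injury, or with a different response. No strand passed in any of these tests, nor did any of the 818 tested miRNAs (limma, 0% called; 97 miRNAs had an unadjusted p under 0.05 after bleomycin, 44 after PBS and 65 in the interaction). The authors' deposited table also holds 0 miRNAs at q under 0.05 between genotypes by its parametric or its rank test. At p under 0.05 it holds 80 and 79 of 1412 after bleomycin and 60 and 47 of 1363 after PBS. After PBS miR-212-5p, whose libraries were fully apart between genotypes, has a p of 0.0571 (Wilcoxon test). How smaller rank-test p-values arose there was not examined.

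After bleomycin the R213G minus WT log2 difference was 0.18 for miR-132-3p (95% confidence interval -0.10 to 0.46), 0.09 for miR-212-3p (-0.18 to 0.35), 0.08 for miR-212-5p (-0.20 to 0.36) and -0.08 for miR-132-5p (-0.39 to 0.23). The R213G and WT bleomycin libraries overlapped for every strand. After PBS the difference was 0.32 for miR-132-3p (0.02 to 0.62; limma, unadjusted p = 0.0397, adjusted p = 0.827). That value rests on WT PBS replicate 1, and without it the difference was 0.12 (limma, adjusted p = 0.993). The other PBS differences were 0.12 for miR-212-3p, 0.17 for miR-212-5p and 0.11 for miR-132-5p. miR-212-5p was the 1 strand whose PBS libraries did not overlap between genotypes, by a gap of 0.01, with the lowest R213G library at 6.44 and the highest WT library at 6.43.

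The R213G response was below the WT response by value for all 4 strands as deposited. Quantile normalization turned the difference of miR-212-3p to 0.033. A sign change came under 6 of 25 alternatives for miR-212-3p, 1 of 25 for miR-212-5p, 1 of 25 for miR-132-3p and 0 of 25 for miR-132-5p, and none of these differences passed. The interaction was -0.19 for miR-132-5p (95% confidence interval -0.65 to 0.27), -0.14 for miR-132-3p (-0.54 to 0.27), -0.09 for miR-212-5p (-0.51 to 0.33) and -0.03 for miR-212-3p (-0.42 to 0.35). The adjusted p-values ran from 0.866 to 0.968 (limma). With 3 or 4 libraries per group these intervals are wide. They run from -0.65 to 0.27 on the log2 scale for miR-132-5p and from -0.42 to 0.35 for miR-212-3p. Differences in response within these limits are not excluded.

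**Figure D5:**
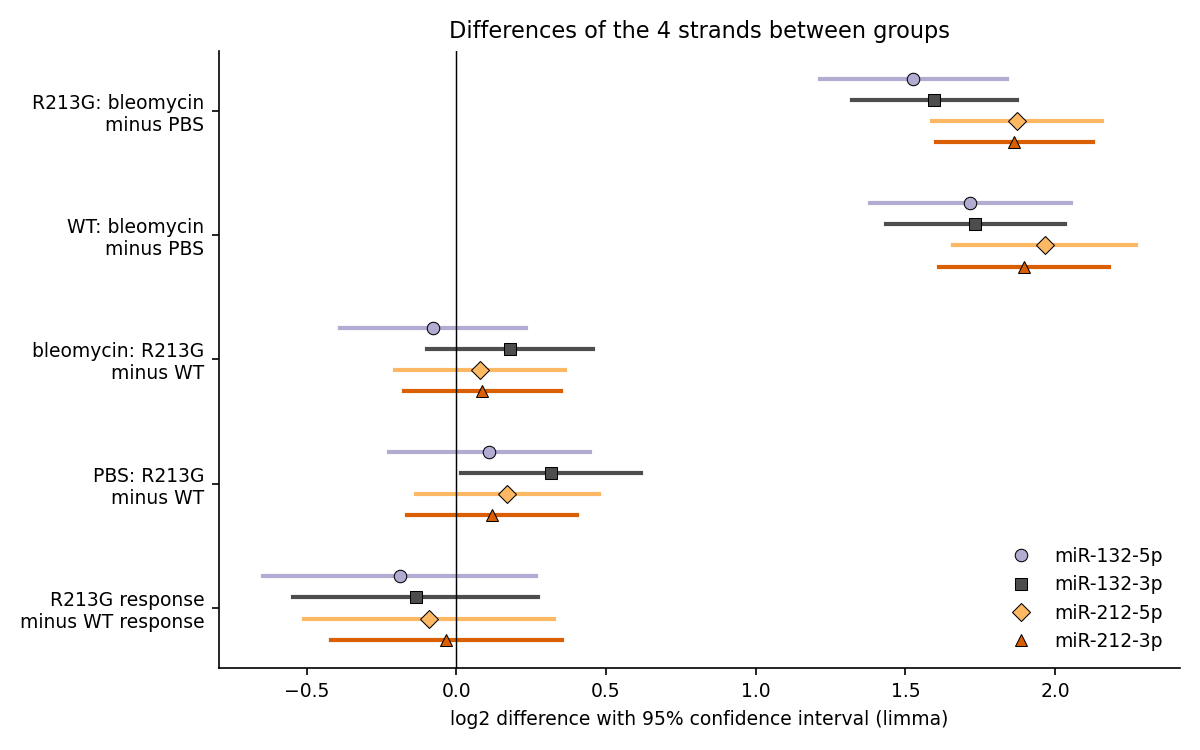
Log2 differences of the 4 strands in the 5 comparisons, with 95% confidence intervals from limma. The bleomycin minus PBS intervals of both genotypes lie well above 0, from 1.22 upward, and the intervals of the genotype comparisons and of the interaction cross 0 except that of miR-132-3p after PBS, which starts at 0.02.

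The R213G libraries carry tag numbers that fall into 2 runs of consecutive numbers, each with 2 bleomycin and 2 PBS libraries. The labels do not say what a tag number stands for. Within the first and second run the difference was 1.59 and 1.60 for miR-132-3p, 1.87 and 1.86 for miR-212-3p, 2.00 and 1.75 for miR-212-5p, and 1.66 and 1.39 for miR-132-5p. Bleomycin and PBS libraries did not overlap within either run for any strand. The ratio of miR-212-5p over miR-132-5p was higher after bleomycin by 0.34 and 0.35 in the 2 runs, without overlap within either. Its means were 0.56 after bleomycin and 0.22 after PBS in the first run, and 0.24 and -0.11 in the second. The ratio of miR-212-3p over miR-132-3p was higher by 0.28 and 0.26, also without overlap within either run. The permutation tests of the ratios took no account of the runs. In WT lungs every bleomycin library carries a lower tag number than every PBS library, and every R213G tag number is below every WT one. Tag order and treatment in WT lungs, and tag range and genotype, therefore cannot be told apart.

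Within groups the strands tracked each other loosely. Over the deviations of the 15 libraries from their group means, Pearson's r was 0.59 between miR-212-5p and miR-212-3p, 0.42 between miR-132-3p and miR-212-3p, and 0.28 between miR-132-5p and miR-132-3p. The remaining pairs, each between the hairpins, lay at 0.51 to 0.56. These are descriptions, since strands of 1 library share its scaling, and the deviations are small beside the bleomycin difference.

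The miRNAs whose levels followed the cluster most closely over all 15 libraries were picked by Pearson's r, as a description, since every miRNA with a firm bleomycin response scores high on this measure. For miR-132-3p these were miR-1983 (r = 0.979), miR-148b-5p (0.974), miR-7688-5p (0.974), miR-335-3p (0.964) and miR-21a-5p (0.961). For miR-212-3p they were miR-184-3p (0.979), miR-21a-5p (0.977), miR-146b-5p (0.975), miR-7688-5p (0.972) and miR-298-5p (0.972). miR-21a-5p, a miRNA long tied to lung fibrosis and macrophage activation, and miR-7688-5p stood in both lists. They differed in size of response: miR-21a-5p was 2.02 higher in R213G lungs and 1.94 in WT lungs on the log2 scale, and miR-7688-5p 0.97 and 0.87. Over the deviations from the group means other names led, let-7f-1-3p (0.868), miR-543-3p (0.811) and miR-3098-3p (0.737) for miR-132-3p and miR-18a-3p (0.804), miR-6933-5p (0.793) and miR-467b-5p (0.778) for miR-212-3p. No miRNA stood among these leaders by both measures.

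3 lists set the cluster beside miRNAs known for the settings in which it is induced. The shares of all tested miRNAs called higher and lower, 22.2% and 19.8% in R213G lungs and 16.4% and 10.3% in WT lungs, are the background for each of the counts that follow. Of 9 miRNAs linked to neuronal activity or CREB in the brain, 2 rose and 1 fell in R213G lungs while 6 did not pass, with a median log2 difference of 0.35. A count of 2 of 9 called higher lies near that background. In WT lungs 2 rose and 0 fell while 7 did not pass, with a median of 0.09. Of these 9 miRNAs, 4 also stand in the list of neuronal markers. The 2 that rose in both genotypes were miR-184-3p, which is abundant in cornea and lens, by 2.16 in R213G lungs and 1.99 in WT lungs, and miR-134-5p, a dendritic miRNA that limits spine size, by 1.23 and 1.02. miR-128-3p, a neuronal miRNA that dampens excitability, fell by 1.00 in R213G lungs (limma, adjusted p = 0.00174), and its WT difference of -0.22 did not pass.

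Of 12 miRNAs induced by Toll-like receptor or NF-kB signalling, R213G lungs had 7 called higher, 2 called lower and 3 that did not pass (median 0.77). WT lungs had 6 called higher, 2 called lower and 4 that did not pass (median 0.68). miR-21a-5p rose by the values above. The other arm, miR-21a-3p, rose by 2.20 in R213G lungs and 2.50 in WT lungs, and miR-146b-5p, which dampens Toll-like receptor signalling, rose by 1.84 and 1.70. The differences of these 3, the smallest by p of the list, lay between 1.70 and 2.50, beside 1.53 to 1.96 for the 4 strands. The rest of the list ranged more widely. miR-147-3p rose by 3.69 in R213G lungs and 3.09 in WT lungs, and miR-187-3p did not pass, at 0.03 and -0.01. The 2 called lower were the same in both genotypes. They were miR-146a-5p, at -0.73 in R213G lungs and -0.51 in WT lungs, and miR-125a-5p, at -0.41 and -0.38. Of 11 angiogenic or vascular miRNAs, R213G lungs had 2 called higher, 3 called lower and 6 that did not pass (median 0.07), and the count called higher lies near the background. WT lungs had 1 called higher, 1 called lower and 9 that did not pass (median -0.01). miR-296-3p, whose hairpin is known for growth factor receptor control in human endothelium, rose by 1.47 in R213G lungs and 1.76 in WT lungs. The 5p arm of that hairpin, miR-296-5p, did not pass in either genotype, at 0.27 and 0.36. miR-92a-3p, an inhibitor of vessel growth, fell by 0.62 in R213G lungs, and its WT difference of -0.31 did not pass. miR-221-3p, which stands in both of the last 2 lists, rose by 0.55 in R213G lungs, and its WT difference of 0.29 did not pass.

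In whole lung, more cells of a type that holds the cluster and more of the cluster per cell cannot be told apart. Markers of several cell types moved with the same comparison. Of 6 myeloid miRNAs, 3 rose in R213G lungs and 4 in WT lungs, beside 22.2% and 16.4% of all tested miRNAs called higher. None fell, and their summed equalized counts were 82928.7 to 94760.1 in R213G bleomycin lungs and 72138.1 to 79209.3 in R213G PBS lungs. In WT lungs those sums were 81010.8 to 122183.5 after bleomycin and 53570.2 to 63151.4 after PBS. The myeloid examples were miR-511-3p, from an intron of the macrophage mannose receptor gene, at 1.74 in R213G lungs and 1.25 in WT lungs, and miR-142a-3p, a marker of all blood-forming cells, at 0.85 and 1.20. The most abundant granulocyte miRNA, miR-223-3p, did not pass in either genotype, at -0.18 and 0.25. The other arm of its hairpin, miR-223-5p, rose by 0.71 in R213G lungs and 1.05 in WT lungs. miR-511-5p, the other arm of miR-511, did not pass in either genotype, at 0.51 and 0.33. The other arm of miR-142a, miR-142a-5p, was the most abundant of the 6. It did not pass in R213G lungs, at 0.21, and rose by 0.68 in WT lungs. The part of myeloid cells in the rise of the cluster was not tested.

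Of 4 fibroblast miRNAs, 3 rose in R213G lungs and 4 in WT lungs, beside the same shares of all tested miRNAs. Their sums were 89479.7 to 95138.4 in R213G bleomycin lungs and 64170.3 to 75470.5 in R213G PBS lungs, and 88397.9 to 96995.9 in WT bleomycin lungs and 66022.5 to 79554.4 in WT PBS lungs. miR-214-3p, made from the antisense transcript of a dynamin gene in mesenchymal cells, rose by 0.86 in R213G lungs and 0.71 in WT lungs. The part of fibroblasts in the rise of the cluster was likewise not tested.

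Other marker lists held or moved the other way. In R213G lungs 4 of 6 epithelial, 1 of 2 endothelial, 2 of 3 smooth muscle, 2 of 3 lymphocyte, 1 of 3 erythroid and 3 of 3 striated muscle miRNAs fell, beside 19.8% of all tested miRNAs. In WT lungs 2 of 6 epithelial, 0 of 2 endothelial, 2 of 3 smooth muscle, 1 of 3 lymphocyte, 2 of 3 erythroid and 2 of 3 striated muscle miRNAs fell, beside 10.3% of all tested miRNAs. None of these lists had a member that rose in either genotype. None of the 5 neuronal miRNAs passed in either genotype, with summed counts of 259.7 to 386.8 in R213G bleomycin lungs, 293.3 to 315.7 in WT bleomycin lungs, 156 to 438 in R213G PBS lungs and 140.8 to 953.1 in WT PBS lungs. miR-124-3p, the defining neuronal miRNA, lay between 0 and 25.2 equalized counts over the 15 libraries. It passed only in the averaged comparison, at 1.38 (limma, adjusted p = 0.0451). The tissue markers were present at high level: miR-126a-3p of endothelium lay between 386262 and 739837 equalized counts, and miR-200b-3p of epithelium between 52483 and 84432.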

How the data were processed

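The 15 libraries of small RNA from whole mouse lung were sequenced on an Illumina instrument, from total RNA extracted with miRNeasy columns, per the labels' protocols. Bowtie2 2.3.2, SAMtools 1.9 and edgeR are named in the submitters' processing notes, without an edgeR version. A genome build and a miRBase release were not given in the sources used here. Values in the deposited table are on the log2 scale, for 1424 mature miRNAs in 15 libraries. These were read, from the values, as log2 of 1 plus a count equalized by the authors to a common library size. That is an inference, because the table's own name has RPKM in it. Read depth is unknown, so no counting interval is given. The authors' deposited p-values and q-values come from Welch and Wilcoxon tests.

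limma 3.58.1 under R 4.3.3 was fitted to the deposited log2 values, with all 15 libraries in 1 model, a mean for each group and a variance trend on level. The filter asked for more than 5 equalized counts in 3 or more libraries, which left 818 miRNAs. The comparisons were bleomycin against PBS in R213G and WT lungs and averaged over both, R213G against WT after each treatment, and the interaction. Benjamini-Hochberg adjustment ran over the 818 miRNAs of each comparison, with a threshold of 0.05. Log2 ratios between strands were compared by exact two-sided permutation tests over libraries, adjusted over 12 tests for bleomycin and 8 for genotype. The limma procedure was tested on simulated data.

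Mature and hairpin sequences came from RefSeq (GRCm38.p6), which held all 4 members and 1199 of the 1424 names, and gene positions from GENCODE M21. The members, the lists and the tests were chosen with earlier results of these data known. Named miRNAs were the 4 members, the 5 and 3 most alike by Pearson's r, and up to 3 per list with the smallest p in the averaged comparison. miR-223-3p, miR-511-5p, miR-142a-5p, miR-296-5p, miR-146a-5p, miR-125a-5p, miR-147-3p and miR-187-3p were named outside this rule, after their values were seen. The alternatives changed the scaling, the pseudocount, the filter, the variance trend, the weights of libraries, the threshold (0.1) and the groups in the model, added a term for replicate number or tag run, or left out 1 library.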

Additional observations from a re-analysis of the deposited data

How the results depend on the processing

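Each of the 4 strands stayed higher after bleomycin and called under 19 alternatives in R213G lungs and 18 in WT lungs, and stayed higher, with no test, within the 2 tag runs. Differences lay at 1.39 to 2.00 in R213G lungs (adjusted p at most 1.32e-05 where tested, limma) and at 1.54 to 2.04 in WT lungs (adjusted p at most 0.00013). The number of all miRNAs called ran from 292 to 408 in R213G lungs and from 166 to 281 in WT lungs. No strand was called between genotypes or in the interaction under any alternative, but small values changed sign. Leaving out 1 library at a time gave an interaction of -0.13 to 0.035 for miR-212-3p, -0.17 to 0.0097 for miR-212-5p and -0.25 to 0.057 for miR-132-3p, and an R213G minus WT difference after bleomycin of -0.013 to 0.15 for miR-212-3p and -0.15 to 0.024 for miR-132-5p. For miR-212-3p, quantile normalization gave an interaction of 0.033 and a PBS difference between genotypes of -0.00044.

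Among the ratios, leaving out 1 library gave miR-132-3p over miR-132-5p differences of -0.061 to 0.18 in R213G lungs, -0.077 to 0.10 in WT lungs and -0.022 to 0.10 averaged, and miR-212-3p over miR-212-5p differences of -0.072 to 0.076 in R213G lungs, -0.070 to 0.0037 averaged and -0.055 to 0.093 between genotypes after bleomycin. For miR-212-5p over miR-132-5p these were -0.031 to 0.16 between genotypes after PBS and 0.25 to 0.34 averaged over genotypes, where the call was lost in 13 of 15 cases. With log2(count + 5) the miR-212-3p over miR-212-5p difference in R213G lungs was 0.011, and within the second tag run alone 0.11. Within the first tag run alone the miR-132-3p over miR-132-5p difference was -0.068. The cause was not tested.

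Replicate numbers were not taken to pair the libraries, since not every pair correlated above 0.1: same-numbered deviations correlated at -0.14 to 0.26 in R213G lungs, where 3 of 4 libraries matched best with their own number, and at -0.14 to -0.04 in WT lungs, where 0 of 3 did. With a replicate block the differences were 1.53, 1.60, 1.87 and 1.86 in R213G lungs and 1.68, 1.75, 1.95 and 1.86 in WT lungs (miR-132-5p, miR-132-3p, miR-212-5p, miR-212-3p), the miR-212-3p interaction was 0.0060, and 348 and 215 miRNAs were called. The limits are 3 or 4 libraries per group, an unknown depth and a unit inferred from the values. In no group of 4 libraries did 1 library stand far from the others by Dixon's criterion, over 24 groups of strand levels and ratios checked. The WT PBS group, with 3 libraries, was not checked in this way.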
